A study of Drosophila melanogaster with 10 samples.

Results

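The fourth chromosome of Drosophila melanogaster was represented by 56 protein coding genes on the array, of 10630 genes with a chromosome in all. A gene was taken when a probe set named it alone and its Entrez identifier lay on chromosome 4 in the reference annotation. Genes whose symbols start with Rp, mRp, ND- or ATPsyn were left out, which removed 1 gene, and each gene was read from its brightest probe set. Of the 56 genes, 48 passed the filter on dim probe sets described below. The annotation lists 80 protein coding genes on this chromosome, so the array covered most but not all of them.

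The fourth chromosome is the smallest of the fly genome, and most of it carries the marks of heterochromatin although its genes are active. Its genes are bound by the protein encoded by Pof, which paints this chromosome, and by heterochromatin protein 1, and are marked by the histone methyltransferase encoded by egg. Several of its genes are large neuronal or developmental genes, among them the Pax6 genes ey and toy that direct eye formation, the Hedgehog pathway transcription factor gene ci and the vesicle priming gene unc-13.

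Total RNA of female heads had been hybridised to 10 oligonucleotide arrays. The strain Fr had 2 arrays, the strain Z30 had 2, and there was 1 array for each of the lines ZZM, ZMZ, ZMM, MZZ, MZM and MMZ. In a line's name the first letter stands for the X chromosome, the second for the second and the third for the third, with Z for a Z30 and M for an Fr chromosome. All samples were from nonvirgin females of 3 to 5 days, with 100 to 200 heads pooled per sample. For none of the lines do the labels say from which strain the fourth chromosome or the mitochondria came, and no line was placed in a group by it. The labels also leave unsaid whether a parent's 2 arrays were from separate cultures. Between the parents the p-values therefore measure only how far arrays of one strain differ, which may be technical. In the fits over all 10 arrays they also take in how far lines with 1 array each depart from the fitted model. The number of arrays limits the precision.

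Values are hybridisation signals on a linear scale that the authors had scaled to one trimmed mean, 500.1 on every array. Signals below 38.9 were raised to that floor before log2 was taken. A probe set passed the filter when its mean log2 value lay above the 40th percentile, which 8379 of 13966 did. Levels of different probe sets cannot be set against each other.

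Arrays Fr 1, Z30 1 and MZM differed from the rest. The highest signal was 26039 on Fr 1 and 28895 on Z30 1 against 46285 to 59815 on the others. The hybridisation controls had a geometric mean of 651 and 538 against 1500 to 2179. Fr 1 and Z30 1 are called the smaller batch here, from these controls alone, since the labels name no batch. The median rank correlation with the other arrays was 0.81 for Fr 1, 0.78 for Z30 1 and 0.82 for MZM, against 0.89 to 0.92 for the remaining 7. Results that rest on these 3 arrays are given with and without them where such fits were run. The interaction of the chromosomes was tested only with all 3 included.

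Markers of head cell types were checked from fixed lists. The eye genes trp and Arr2 were bright on every array, with a summed signal of 22548 and 33280 in Fr, 24121 and 35240 in Z30 and 36633 to 55362 in the lines. Of the 3 neuron markers nSyb alone passed the filter, with 555 and 2340 in Fr, 985 and 1628 in Z30, 939 on MZM and 2130 to 2959 on the other 5 lines. The neuron marker brp was below the floor on Fr 1, Z30 1, Z30 2 and MZM. The 3 ovary markers on the array summed to 264 to 753 over all 10 arrays. No marker on the array was listed at 0.

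The 48 genes past the filter were lowest as a group on MZM, then on Fr 1 and, by less, on Z30 1. MZM is the only array of its line, so array and line cannot be told apart there. Their median deviation from each gene's own mean was -1.17 log2 units on MZM, -0.43 on Fr 1 and -0.06 on Z30 1, against 0.21 to 0.31 on the other 7 arrays. Over all probe sets tested the same medians were 0.01 to 0.07 on every array. MZM was the lowest of the 10 arrays for 37 of the 48 genes and for 20.03% of all probe sets tested. The plot of all genes by array shows these columns.

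**Figure D1:**
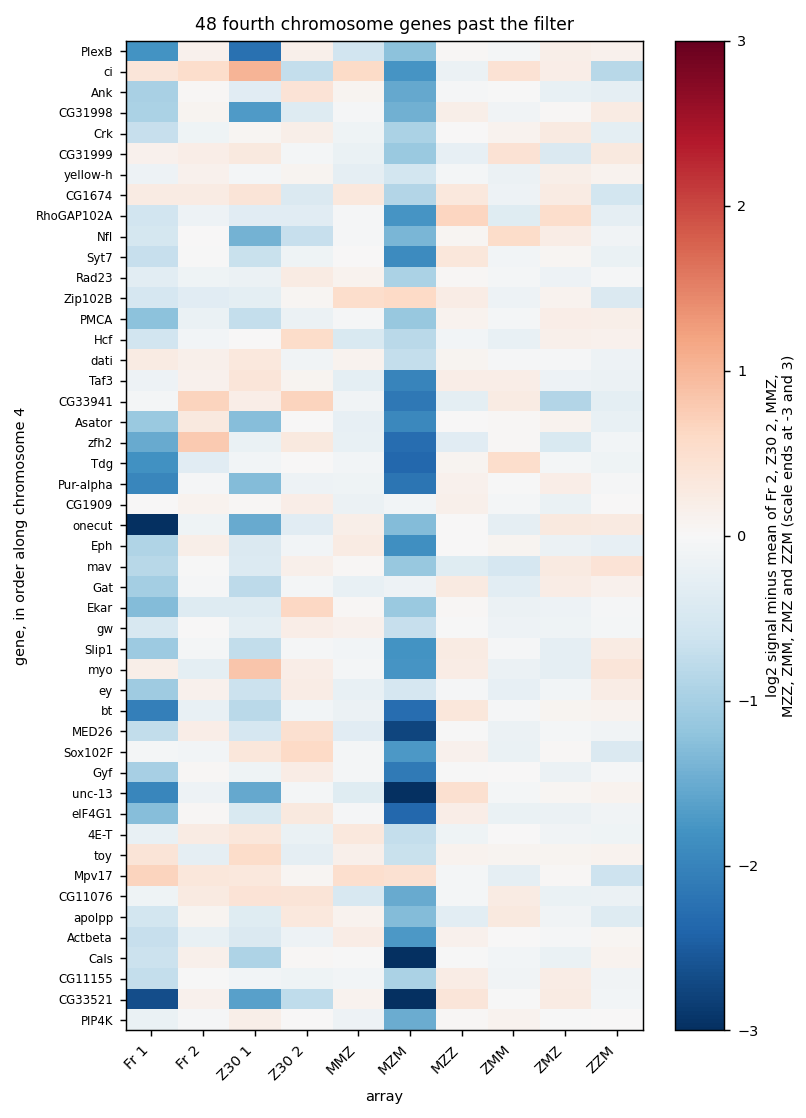
Log2 signal of the 48 genes of the fourth chromosome past the filter (rows, in order along the chromosome) on each of the 10 arrays (columns), less the mean of Fr 2, Z30 2, MMZ, MZZ, ZMM, ZMZ and ZZM, with red higher and blue lower. The MZM column is blue for 46 of 48 genes, Fr 1 and Z30 1 are paler blue, and the remaining columns are near white.

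No gene of the fourth chromosome passed the test between the parents. In limma on the 4 parent arrays 0 of 48 were called at an adjusted p under 0.05, against 3 of all 8379 probe sets (0.0358%). At an unadjusted p under 0.05 there were 0 of 48, against 4.19% of all. This test took no account of the array batch and was imprecise. The median standard error was 0.43 log2 units, and the 95% interval of the difference lay within 1 log2 unit of 0 for only 9 of the 48 genes. A difference that missed the threshold is therefore not shown to be absent.

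The differences of the 48 genes, Z30 minus Fr, ran from -0.81 to 1.04 log2 units. Their median was 0.21 and 37 were positive, against a median of 0.02 and 51.8% positive over all probe sets tested. The positive median rested on the smaller batch, and there on Fr 1. Without Fr 1 it was -0.13, and without Z30 1 it was 0.45. Between Fr 1 and Z30 1 the median difference was 0.39 with 42 of 48 genes positive, and between Fr 2 and Z30 2 it was 0.03 with 26 positive. In size the differences were like those of other genes, with a median absolute difference of 0.261 against 0.259 for 6614 genes of X, 2 and 3. Across the 48 genes the 2 pair differences had a Pearson correlation of 0.20, against 0.36 across the other genes, where each pair shares its batch.

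Tdg, which encodes a thymine DNA glycosylase of DNA repair, was the gene with the largest parental difference. Its signal was 133 and 368 on Fr 1 and Fr 2 and 443 and 469 on Z30 1 and Z30 2. The Fr arrays were both lower, but Fr 2 was close to Z30 and Fr 1 far below. The log2 difference was 1.04 ± 0.55 (SE, 2 arrays against 2, 95% interval -0.25 to 2.34, adjusted p = 1.0 in limma), made up of 1.74 between the arrays numbered 1 and 0.35 between those numbered 2. On the lines Tdg had 437 on MMZ, 91.6 on MZM, 491 on MZZ, 676 on ZMM, 445 on ZMZ and 428 on ZZM. MZM was the lowest of all arrays and ZMM the highest, with the other lines inside or near the range of Z30.

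With the array batch as a block, which among the parents is the same as pairing them by replicate number, Tdg was the 1 gene of 48 called higher in Z30 (adjusted p = 0.0233 in limma). In that fit 551 of 8379 probe sets were called (6.58%), 2.82% of all as higher in Z30. The call ended when the block was used without the variance trend, where 0 of 48 were called and the smallest adjusted p was 0.20. Another 6 genes had an unadjusted p under 0.05 in the blocked limma fit, all higher in Z30. These 6 were Ekar, bt, Crk, myo, eIF4G1 and Gyf, with adjusted p-values of 0.14 to 0.29. The total of 7 of 48 stands beside 16.5% of all probe sets (8.01% higher in Z30).

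Ekar, a kainate-type glutamate receptor gene, lay just outside 1 log2 unit. It had 109 and 204 in Fr and 203 and 411 in Z30. Z30 1 lay just below Fr 2, so the groups overlapped, yet both pairs gave a similar difference of 0.90 and 1.01 log2 units (mean 0.95 ± 0.61 SE, adjusted p = 1.0 in limma). The lines had 274 on MMZ, 123 on MZM, 274 on MZZ, 237 on ZMM, 241 on ZMZ and 261 on ZZM. The 5 lines other than MZM thus lay between the Fr 2 and Z30 2 signals.

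**Figure D2:**
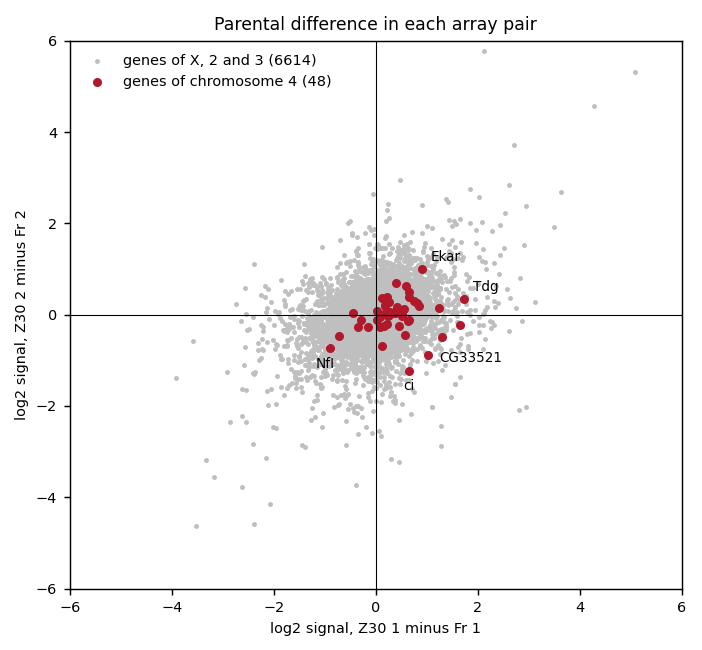
Log2 signal difference between the parents in the smaller batch (x axis, Z30 1 minus Fr 1) and in the larger batch (y axis, Z30 2 minus Fr 2) for 48 genes of the fourth chromosome (red) and 6614 genes of X, 2 and 3 (grey). Most red points lie right of 0 on the x axis (42 of 48) and evenly around 0 on the y axis (26 of 48 above).

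A difference of over 1 log2 unit with the same sign in both pairs was met by Tdg alone, 1 of 48 genes (2.08%), against 334 of 6614 genes of X, 2 and 3 (5.05%). None of the 48 exceeded 1 log2 unit in each pair, as 144 of the others did (2.18%). At 0.5 log2 units with the same sign there were 12 genes (25%, against 21.3% of the others). Higher in Z30 were 10 of the 12, against 714 of 1406 such genes of X, 2 and 3. The 10 were Tdg, Ekar, bt, Hcf, myo, Sox102F, eIF4G1, Crk, Gyf and Ank, and the 2 lower in Z30 were NfI and CG31998.

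Among the genes of the nervous system, 8 of 10 on the array passed the filter and 0 were called in limma. Their median parental difference was 0.10 log2 units and 4 of the 8 changed sign between the pairs. Apart from Ekar the 3 with the smallest p were the calcium pump gene PMCA (0.27 ± 0.41 SE), the calsyntenin gene Cals (-0.20 ± 0.43) and unc-13 (0.26 ± 0.69). unc-13 had 437 and 1524 in Fr and 585 and 1637 in Z30, so the batches lay much further apart than the strains.

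Of 14 transcription regulators on the array 11 passed and 0 were called in limma, with a median difference of 0.26 log2 units. Sox102F, a Sox family transcription factor gene, had 323 and 318 in Fr and 425 and 515 in Z30 (0.55 ± 0.36 SE). Hcf, the host cell factor gene, had 136 and 193 in Fr and 206 and 297 in Z30 (0.61 ± 0.53). NfI, a nuclear factor I gene, was the lowest in Z30 relative to Fr, with 133 and 193 in Fr and 71.1 and 117 in Z30 (-0.81 ± 0.75). The neuronal homeobox gene onecut had 40.3 and 330 in Fr and 127 and 284 in Z30, and its difference of 0.72 ± 1.06 held opposite signs in the 2 pairs.

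ci also turned its sign between the pairs. It had 170.0 and 190.0 in Fr and 267 and 81.2 in Z30, which gave 0.65 log2 units in the smaller batch and -1.23 in the larger. CG33521 did the same, with 133 and 916 in Fr and 271 and 494 in Z30 (1.03 and -0.89). For both genes the Fr arrays lay between or across the Z30 arrays, and no strain was the higher one.

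All 6 signalling genes on the array passed and 0 were called in limma, with a median parental difference of 0.26 log2 units. The adaptor gene Crk had 1229 and 1821 in Fr and 2072 and 2246 in Z30 (0.53 ± 0.31 SE). The TGF-beta ligand gene myo had 753 and 542 in Fr and 1185 and 764 in Z30 (0.57 ± 0.36). PIP4K, a phosphoinositide kinase gene, and mav, another TGF-beta ligand gene, had 0.21 ± 0.31 and 0.30 ± 0.44.

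The 5 genes of RNA and protein turnover all passed and 0 were called in limma, with a median difference of 0.25 log2 units. eIF4G1, a translation initiation factor gene, had 537 and 1330 in Fr and 948 and 1581 in Z30 (0.53 ± 0.49 SE). Gyf had 0.52 ± 0.41, the proteasome shuttle gene Rad23 0.25 ± 0.31, and gw, a gene of microRNA silencing, 0.19 ± 0.32. Of the cytoskeleton and muscle genes bt, which encodes the giant muscle protein projectin, had 0.70 ± 0.62 and the ankyrin gene Ank 0.52 ± 0.44. Among the metabolism and transport genes the zinc transporter gene Zip102B, the lipid carrier gene apolpp and yellow-h had 0.31 ± 0.34, 0.20 ± 0.37 and 0.02 ± 0.47. Tdg stood in that last list although it is a DNA repair gene.

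Whether the lines resembled Fr or Z30 on this chromosome was asked with a position for each line, a slope over the genes that differ between the parents with the Z30 level at 1 and the Fr level at -1. By the rule of 1 log2 unit the position rested on Tdg alone. It was 0.88 on MMZ, 1.21 on MZZ, 2.09 on ZMM, 0.93 on ZMZ, 0.82 on ZZM and -3.44 on MZM. Tdg was nearer to Z30 on 5 lines and below both Fr arrays on MZM. The same rule over genes of X, 2 and 3, with MZM left out, gave -0.93 to -0.78 for chromosomes labelled Fr (7 values) and -0.23 to 0.33 for those labelled Z30 (8 values). Labelled Z30 chromosomes thus lay near 0 on this scale and not near 1.

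With the 12 genes past 0.5 log2 units the positions were 0.08 on MMZ, 0.43 on MZZ, 0.13 on ZMM, 0.09 on ZMZ, 0.11 on ZZM and -3.02 on MZM. Chromosomes labelled Fr had -0.87 to -0.65 at this threshold and those labelled Z30 -0.13 to 0.24, again without MZM. The 12 genes did not move as one. On each of the 5 lines other than MZM, 7 or 8 of the 12 were nearer to Z30, and all of these were among the 10 genes that are higher in Z30. Both genes lower in Z30 lay on the Fr side of every one of these lines, NfI at -1.32 to -2.97 and CG31998 at -2.15 to -3.28. In signal NfI had 176 to 279 and CG31998 212 to 267 on these lines, above Fr 1 on every line and near or above Fr 2 on most. The lines were thus high for both kinds of gene, and the mean of the parents holds the low arrays Fr 1 and Z30 1.

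Parent levels taken from Fr 2 and Z30 2 alone, an alternative added after the values were seen, gave 7 genes past 0.5 log2 units, 3 higher and 4 lower in Z30. The genes were Ekar, Hcf and Sox102F, and ci, CG33521, CG1674 and NfI. The positions became -0.93 on MMZ, -0.56 on MZZ, -0.94 on ZMM, -0.75 on ZMZ and 0.06 on ZZM, with 1.06 on MZM. Chromosomes labelled Fr had -0.80 to -0.50 and those labelled Z30 -0.18 to 0.09 in this setting, without MZM. On MMZ and ZMZ 0 of the 7 genes were nearer to Z30, and 1 was on MZZ and on ZMM.

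ZZM differed from the other lines in this setting through 2 genes. ci had 74.3 on ZZM against 81.2 on Z30 2 and 190.0 on Fr 2, while Z30 1 had 267. CG1674 had 248 on ZZM against 269 on Z30 2 and 431 on Fr 2, while Z30 1 had 474. For both genes ZZM was as low as Z30 2, and Z30 1 was as high as or higher than Fr, so the 2 arrays of the Z30 strain did not give one level. The other 5 genes of the 7 were nearer to Fr 2 on ZZM.

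Centring each array on its median over the chromosome's genes left 6 genes past 0.5 log2 units and positions of -0.15 to 0.16 on the 5 lines other than MZM. The placement of these lines thus turned with the parent arrays that set the levels, from within or above the range of labelled Z30 chromosomes to within or below that of labelled Fr chromosomes for MMZ, MZZ, ZMM and ZMZ. No origin of the fourth chromosome can be read from these values for any line.

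**Figure D3:**
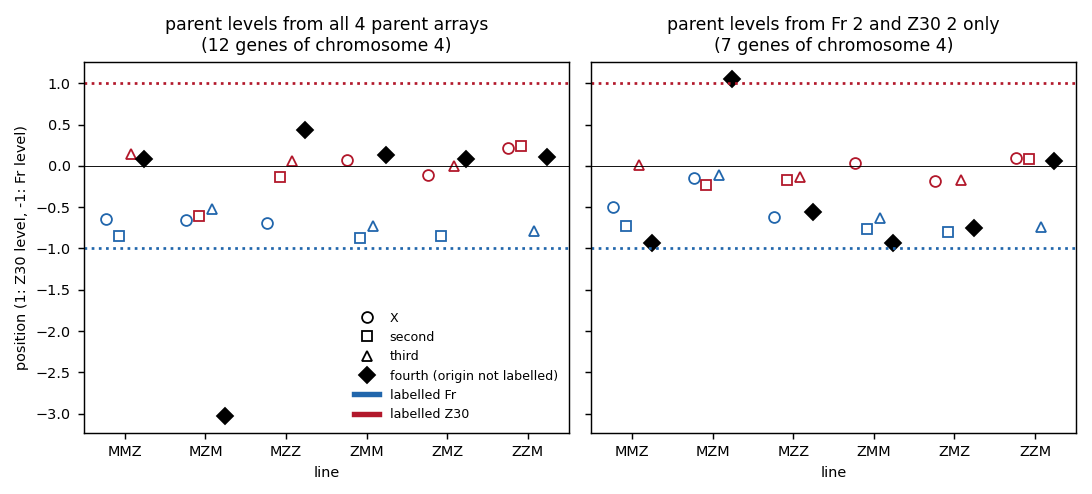
Position of each line on the scale from the Fr level (-1) to the Z30 level (1), by chromosome, with parent levels from all 4 parent arrays (left) and from Fr 2 and Z30 2 alone (right), at 0.5 log2 units. Open symbols are the labelled X, the second and the third chromosomes (blue Fr, red Z30) and filled diamonds the fourth, which lie at 0.08 to 0.43 on the left and at -0.94 to 0.06 on the right for the lines other than MZM.

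The origin of the X, the second and the third chromosome was tested over all 10 arrays, 5 against 5 for each. A gene of the fourth chromosome lies on none of these. In limma 0 of 48 genes were called for the X (0.0597% of all probe sets), 0 for the second (0.0358%) and 0 for the third (0.0955%). In each of the 3 comparisons 1 gene had an unadjusted p under 0.05, against 2.47%, 4.08% and 4.49% of all probe sets. These were Mpv17 for the X (-0.49 ± 0.22 SE), ci for the second (-1.07 ± 0.46) and Crk for the third (0.44 ± 0.19). With the array batch as a block 0 were called again in each (backgrounds 0.107%, 0.155% and 0.406%), and 3, 4 and 4 genes had an unadjusted p under 0.05 against 4.67%, 7.77% and 7.51% of all.

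The 48 genes nevertheless leaned one way in each comparison. The median difference with the chromosome from Z30 was 0.37 log2 units for the X with 44 genes positive, -0.32 for the second with 6 positive, and 0.38 for the third with 46 positive, while the medians of all probe sets were 0.00, -0.02 and 0.04. MZM carries the X and the third chromosome of Fr and the second of Z30, and the lean went with that array. In the 6 lines alone, where MZM is 1 array of 6, the medians were 0.76, 0.06 and 0.75, with 7, 0 and 10 genes at an unadjusted p under 0.05 (8.78%, 4.08% and 10.1% of all probe sets) and 0 called. Without MZM the medians were 0.06, 0.02 and 0.14, and over the 7 arrays of the larger batch without MZM they were -0.03, 0.06 and 0.02. In those 7 arrays the 95% interval lay within 1 log2 unit of 0 for 46, 45 and 44 of the 48 genes.

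The genes described here among those with the largest effects were all low on MZM. For the X they were Tdg (0.91 ± 0.43 SE), unc-13 (0.73 ± 0.63) and the Mediator subunit gene MED26 (0.67 ± 0.46). For the second they were ci (-1.07 ± 0.46), CG33521 (-0.95 ± 0.69) and Cals (-0.84 ± 0.51), and for the third CG33521 (0.91 ± 0.69) and unc-13 (0.78 ± 0.63). The smallest of their adjusted p-values in limma was 1.0. Over the 7 arrays the sign turned for unc-13 with the X (-0.03), for Cals with the second (0.12) and for CG33521 with the third (-0.04).

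The signal of ci was 15.7 on MZM, below the floor, 117 on MZZ and 74.3 on ZZM, and 196, 179 and 151 on MMZ, ZMM and ZMZ with the second chromosome from Fr. The 3 lines with the Z30 chromosome were all lower than the 3 with the Fr one. However, ci was named for its large effect over these same arrays, and MZM was low for most genes of the fourth chromosome. How many of all probe sets separate these lines in the same way was not counted, so no effect of the second chromosome is read from this order. Among the parents Z30 2 was low and Z30 1 high, so the 5 arrays of each origin overlapped.

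Sox102F was the only gene of the 48 whose 5 arrays of one origin did not overlap those of the other, for the third chromosome, where 1.58% of all probe sets did so. For the X and the second there was no such gene (0.943% and 1.11% of all). With the third chromosome from Z30 Sox102F had 425 and 515 in the parent and 326, 370 and 348 on MMZ, MZZ and ZMZ. With that of Fr it had 323 and 318 in the parent and 103, 295 and 249 on MZM, ZMM and ZZM. The gap was narrow, 323 against 326, and the difference of 0.71 ± 0.32 SE had an adjusted p of 1.0 in limma.

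**Figure D4:**
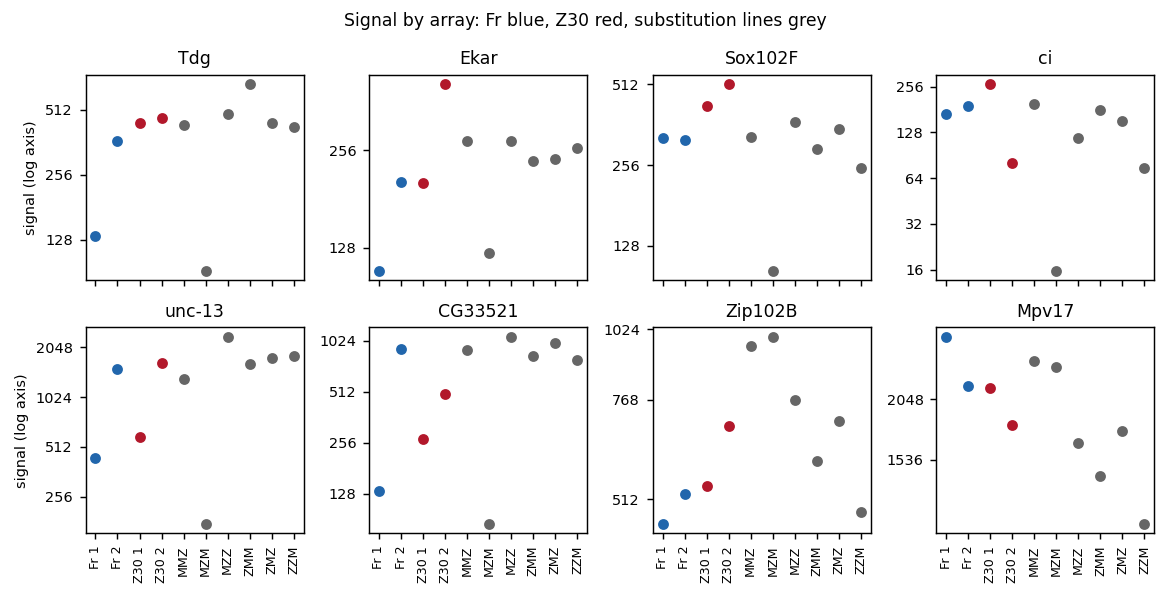
Signal (log axis, its own range for each gene) of Tdg, Ekar, Sox102F, ci, unc-13, CG33521, Zip102B and Mpv17 on each array, with 1 point per array, Fr in blue, Z30 in red and the lines in grey. MZM is the lowest point for Tdg, Sox102F, ci, unc-13 and CG33521, and is among the highest for Zip102B and Mpv17.

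Whether the effects of the 3 chromosomes add up was tested with the 3 pairwise interactions together. In limma 0 of 48 genes were called, and 0 of all 8379 (0.0%), with 4 genes of 48 at an unadjusted p under 0.05 against 3.95% of all. With the array batch as a block 0 were called again, and 12 of 48 had an unadjusted p under 0.05 against 5.73% of all (smallest adjusted p = 0.79 in limma). No interaction fit left out MZM, on which most of these genes were low, so how far the counts rest on that array was not tested. In the fit without the block the smallest p was that of CG33941 (adjusted p = 0.92 in limma), which had 963 and 1590.2 in Fr and 1158 and 1587 in Z30, while the lines had 925 on MMZ, 225 on MZM, 815 on MZZ, 1184 on ZMM, 546 on ZMZ and 824 on ZZM. Apart from ZMM every line was below all 4 parent arrays. The other 3 were Taf3, CG11076 and myo.

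On MZM the genes of the fourth chromosome were low as a group. Against the mean of the other 7 arrays of the larger batch their median difference was -1.47 log2 units, where all probe sets tested had 0.06. Lower by over 1 log2 unit were 33 of 48 genes, against 14.9% of all probe sets, and 44 of 48 were below every one of the 7 arrays, against 27.9% of all. MZM is a single array, so there is no replicate and no test of this difference. Whether fewer cells of a type or less RNA per cell lies behind a lower signal cannot be told apart in such whole-head samples.

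CG33521 was the lowest, at 85.3 on MZM against 494 to 1079 on the 7 arrays, 9.80-fold lower. unc-13 had 175 against 1319 to 2375 (9.70-fold lower) and Cals 207 against 1504 to 1904 (8.31-fold lower). MED26, eIF4G1 and Tdg were 6.79-fold, 5.12-fold and 5.09-fold lower. For these 6 genes the MZM signal was less than the lowest of the 7 arrays by far more than the spread among them, whose SD was 0.11 to 0.37 log2 units. ci lay under the floor on MZM and was at least 3.41-fold lower.

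By role the difference was found in most groups of genes. The 8 nervous system genes had a median of -1.54 log2 units, with 7 lower by over 1 and the GABA transporter gene Gat the exception at -0.15. The 11 transcription regulators had a median of -1.38 with 7 lower by over 1, the eye gene ey being the least low at -0.50. The 6 signalling genes had a median of -1.60 and 5 were lower by over 1. The 5 genes of RNA and protein turnover had -0.94, with 2 lower by over 1.

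A few genes were not low on MZM. CG1909 had 1373 against 1269 to 1667 on the 7 arrays, and Gat had 1767 against 1563 to 2378, both inside the range. Mpv17, named after a vertebrate protein of the inner mitochondrial membrane, had 2388 against 1132 to 2461, in the upper part of the range. Zip102B had 993 against 486 to 956 and was the 1 gene above all 7.

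Genes spanning more of the genome were lower on MZM in general, and genes of the fourth chromosome are long, with a median span of 10474 bases against 3017 for genes of X, 2 and 3. Among genes of over 10000 bases the median MZM difference was -1.63 log2 units for 26 genes of the fourth chromosome and -0.66 for 1275 other genes. Among shorter genes it was -1.41 for 22 genes of the fourth chromosome and 0.20 for 5339 others. In the shorter class 14 of 22 genes were lower by over 1 log2 unit, against 7.68% of the others, and in the longer class 19 of 26 against 34.5%. The Spearman correlation of the difference with span was -0.30 across the 48 genes and -0.43 across the 6614 others, all from this 1 array.

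The neuron marker nSyb was low on MZM as well, at -1.30 log2 units. It had 939 there, against 2130 to 2959 on the other 5 lines and 555 to 2340 on the parent arrays. The neuron markers elav and brp did not pass the filter, and brp had 28.4 on MZM and 27.8 on Z30 2. The flight muscle marker Act88F was low on MZM too, at -1.06 log2 units, and the glia markers repo and nrv2 were at 0.37 and -0.07. The eye genes trp and Arr2 were higher on MZM by 0.48 and 0.41 log2 units. The 14 regulators of the fourth chromosome past the filter had a median of -0.23, with 5 lower by over 1. The part of neuron content and of gene span in the low signals was not tested, and with 1 array of MZM the array and the line cannot be told apart.

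Fr 1 and Z30 1 were low too, by less. Against the same 7 arrays the median difference of the 48 genes was -0.69 on Fr 1 and -0.31 on Z30 1, with 15 and 8 genes lower by over 1 log2 unit (11.4% of all probe sets on each). Across the 48 genes the difference on Fr 1 had a Pearson correlation of 0.77 with that on Z30 1 and of 0.46 with that on MZM. These correlations share the 7 reference arrays and are given as a description. Gene span went with the deviation from each gene's own mean on these arrays too. Across the 6614 other genes the Spearman correlation was -0.35 on Fr 1, -0.23 on Z30 1 and -0.38 on MZM, against -0.03 to 0.36 on the other 7. Across the 48 genes it was -0.30, -0.12 and -0.28, against 0.11 to 0.28. The part of span in the low signals was not tested.

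**Figure D5:**
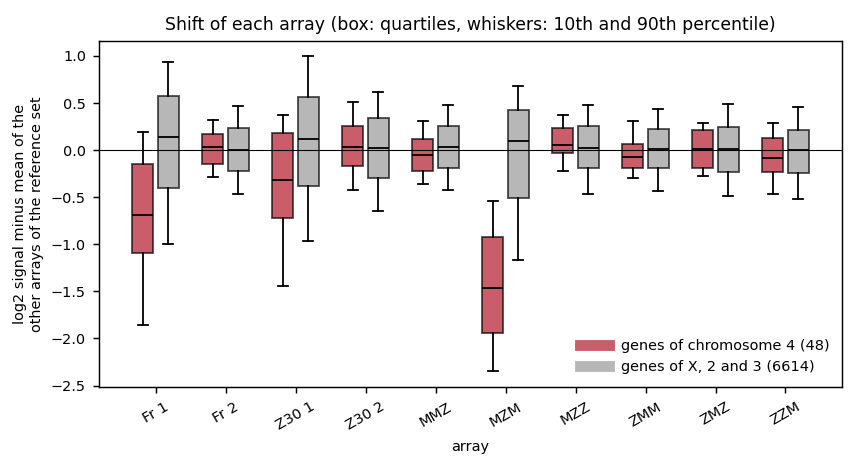
Log2 signal of each array less the mean of the other arrays among Fr 2, Z30 2, MMZ, MZZ, ZMM, ZMZ and ZZM, for 48 genes of the fourth chromosome (red) and 6614 genes of X, 2 and 3 (grey), with quartile boxes, medians and whiskers at the 10th and 90th percentile. The red medians are -1.47 on MZM, -0.69 on Fr 1 and -0.31 on Z30 1 and between -0.09 and 0.05 on the other arrays, while the grey medians lie at 0.00 to 0.14.

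Over all 10 arrays the fourth chromosome genes varied more than others, with a median SD of 0.597 log2 units against 0.440 for genes of the X, 0.419 of the second and 0.416 of the third chromosome. A range of over 1 log2 unit was reached by 45 of 48 genes (93.8%) there, against 75.1%, 72.4% and 72.8% of the others. Over the 7 arrays left without MZM, Fr 1 and Z30 1, the arrays on which these genes were low, the order turned. The median SD was 0.214 log2 units, against 0.316 for genes of the X, 0.308 of the second and 0.303 of the third chromosome. Within the members' middle range of signal it was 0.196 for 24 genes against 0.284, 0.271 and 0.274. In these 7 arrays 8 of 48 genes (16.7%) had a range of over 1 log2 unit, against 41.0%, 38.6% and 37.4% of the other chromosomes' genes. These 8 were CG33941, ci, NfI, zfh2, CG33521, Mpv17, Sox102F and Ekar. The median correlation between pairs of the 48 genes was 0.65 over 10 arrays and 0.04 over these 7, and for genes of the X, the second and the third chromosome it was 0.01, 0.01 and 0.00 over 10 arrays.

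The most variable were CG33941 (SD 0.56 log2 units, from 546 on ZMZ to 1590.2 on Fr 2) and ci (SD 0.58, from 74.3 on ZZM to 196 on MMZ). Mpv17 ran from 1132 on ZZM to 2461 on MMZ, and the 2 arrays of each parent lay at 2761 and 2184 for Fr and 2160.2 and 1812 for Z30. PIP4K was among the steadiest, with 616 to 734 (SD 0.08), as was Cals with 1504 to 1904 (SD 0.11). Cals, which was 8.31-fold lower on MZM, was thus steady elsewhere.

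Of the 23 listed regulators of the chromosome 18 were on the array as single-gene probe sets, 14 passed the filter and 0 were called in limma for the parents or any chromosome. The gene of heterochromatin protein 1 had 572 and 403 in Fr and 576 and 629 in Z30, and 263 to 411 on the 6 lines, where MZM was the highest. Its parental difference was 0.33 ± 0.35 log2 units (SE), with 0.01 in the smaller batch and 0.64 in the larger. Pof did not pass the filter, with 32.8 and 197 in Fr, 31.9 and 212 in Z30 and 78.1 to 183 on the lines. Both strains were under the floor in the smaller batch and close to each other in the larger. egg was not analysed here.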

How the data were processed

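The deposited values are intensity per probe set and array on a linear scale, scaled by the authors to one trimmed mean, as the values themselves show. The array software is not given in the sources used here. From them, log2 was taken after a floor at the pooled 20th percentile, and 44 control probe sets were left out. Genes, chromosomes and spans came from the platform table and the Release 6 annotation through Entrez identifiers.

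The test was that of limma 3.58.1, run in R 4.3.3 (eBayes with a mean-variance trend, Benjamini-Hochberg over 8379 probe sets, threshold 0.05), a procedure checked on simulated data. The parents were fitted on their 4 arrays and the 3 origins as additive terms over 10 arrays. Log2 differences are Z30 minus Fr. The array batch as a block, other scalings, floors, filters, variance models and array sets were tried as alternatives. Same-numbered parent arrays deviated together (correlation 0.64 across probe sets), but with 2 pairs, whose numbers coincide with the batch, this does not show a pairing by design.

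The members, lists and tests were chosen with earlier results of these data known. The naming rule takes members called in any fit or differing by over 1 log2 unit between the parents, those just inside and outside that unit, the 3 largest effects per chromosome, up to 4 of each list by p between the parents, and Pof, egg and the gene of heterochromatin protein 1. Taf3, zfh2, Mpv17, Gat, ey, toy, CG31998, CG1674, CG1909, CG33941 and CG11076 were named after their values were seen. One gene with a large effect for the third chromosome is not reported here.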

Additional observations from a re-analysis of the deposited data

Results flagged for a closer look

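Of 22 groups of 5 arrays examined, 7 held an array whose gap to the nearest other, as a share of the group's range, exceeded 0.71. That limit flags about 1 in 20 groups when they are independent and not picked by their values. Here most groups were of genes picked for large effects, and arrays recur in them, so the count cannot be set against that rate. For the median deviation over the 48 genes these were Z30 1 among arrays with the X from Z30 (0.763), Fr 1 among those with the second chromosome from Fr (0.92), MZM among those with the second from Z30 (0.747) and Z30 1 among those with the third from Z30 (0.775). Each was the lowest of its 5 arrays, and the groups share arrays.

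Among single genes, Tdg was high on ZMM among arrays with the X from Z30 (0.8, 676 against 428 to 469). unc-13 was low on Z30 1 in the same group (0.903, 585 against 1627 to 1815). CG33521 was low on Fr 1 among arrays with the second chromosome from Fr (0.913, 133 against 830 to 988). ZMM was the one array flagged for a high value.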

How the results depend on the processing

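The counts of 0 called genes for the X, the second and the third chromosome and the interaction held under every alternative run, and that for the parents under all but the array batch as a block and the replicate block, which pair the same arrays and gave 1 each, Tdg (adjusted p = 0.0233 in limma). Called genes stayed at 0 when single arrays were left out, which was not done for the interaction. The median over the 48 genes kept its sign except for the X over the 7 arrays of the larger batch without MZM (-0.029), for the second over those 7 arrays (0.0585), in the 6 lines only (0.0558) and with the block and without MZM (0.0865), and under some omissions of single arrays. In the 6 lines only it was 0.760 for the X and 0.752 for the third, against 0.375 and 0.377 over 10 arrays. Without single arrays it ran from -0.13 to 0.53 for the parents and from -0.53 to 0.02 for the second, and from 0.06 to 0.56 for the X and 0.14 to 0.58 for the third.

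Genes that differ between the parents numbered 12 past 0.5 log2 units, 2 and 7 with levels from Fr 2 and Z30 2 past 1 and 0.5, 6 past 0.5 after centring, 4 to 11 without one parent array, and 0 with log2(value + 32), where no position exists.

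Positions of MMZ, MZM, MZZ, ZMM, ZMZ and ZZM ranged from -1.04 to 1.46, -1.53 to 2.38, -1.40 to 1.67, -1.29 to 1.504, -1.53 to 1.504 and -1.48 to 1.51 without one parent array. With Fr 2 and Z30 2 past 1 they were -0.71, 0.64, 0.01, -0.74, -0.49 and 0.60, and past 0.5 -0.93, 1.06, -0.56, -0.94, -0.75 and 0.06. Centred on each array's median they were -0.74, -0.93, -0.83, -1.94, -1.32 and -0.69. These centred positions rested on NfI alone, since Tdg no longer passed the rule, so they are not a change in the same gene. Centred and past 0.5 they were -1.07 on MZM and 0.055 on ZMM. Past 0.5 alone ZMM had 0.13.

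Single genes reversed as follows. unc-13 with the X had -0.0054 with the block and without MZM and -0.027 over the 7 arrays. Cals with the second had -1.22 to 0.019 without single arrays (0.019 without MZM), 0.093 in the 6 lines, 0.105 with the block and without MZM and 0.12 over the 7 arrays. CG33521 had 0.10 with the second in the 6 lines and -0.045 with the third over the 7 arrays. The cause of these changes was not tested beyond the array left out. With 1 residual degree of freedom the blocked parental fit takes its spread from the trend over probe sets.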

Other observations

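The 48 genes had 6 further probe sets past the filter, of which 4 were below all 7 reference arrays on MZM, and their median difference there was -1.50 log2 units. The further probe set of apolpp behaved unlike the brightest one: it had 2606 on Fr 1 and 2919 on Z30 1 against 295 to 1250 on the 7 reference arrays, whereas the brightest had 8005 and 9070.1 against 8965 to 14508. On MZM both were low, 108 and 4750. The further probe set of Syt7, a synaptotagmin gene, had 7.2 on MZM against 153 to 258, and that of CG11155 had 19.6 against 104 to 198, both under the floor. That of MED26 had 106.5 on MZM against 115 to 393, below all 7 but by much less than the brightest one. That of CG31999 had 138 on MZM, inside the range of 102 to 182, and that of gw had 1131, inside the range of 1028 to 1885.

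The 8 genes that did not pass the filter were Ephrin, CG11360, fd102C, mGluR, fuss, sv, Kif3C and Mitf. The metabotropic glutamate receptor gene mGluR had 21.6 on MZM against 115 to 158 on the 7 reference arrays.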
